A study of Homo sapiens with 38 samples.

Results

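A group of 10 imprinted genes, chosen by name among 64449 annotated genes, was examined for acetylation and trimethylation of the same histone residue, lysine 27 of histone H3. They were H19, IGF2, MEG3, DLK1, PEG3, PEG10, MEST, NDN, GRB10 and PLAGL1. Each gene was scored at every annotated transcript start, in a window of 1500 bp to either side, and over its whole length, for peaks of H3K27ac and H3K27me3 in 38 libraries. In the benchmark libraries described below, both peak callers placed both marks at the same transcript start at 1 of them, PLAGL1. In those libraries H3K27me3 alone lay on H19, IGF2 and MEST, H3K27ac alone or nearly so on GRB10, DLK1 and MEG3, neither mark on PEG3 or NDN, and PEG10 carried H3K27me3 in both callers and H3K27ac in 1 of them.

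An imprinted gene is transcribed from the copy inherited from only one parent, and the choice is set by DNA methylation laid down in the egg or the sperm at an imprinting control region. Acetyltransferases place H3K27ac where promoters and enhancers are in use, and the Polycomb repressive complex places H3K27me3 over silent genes. A single histone tail cannot hold both marks at lysine 27, so a place where a bulk sample shows both has tails of both kinds, on the same or on different copies of the locus. Peak lists of bulk cells do not separate the parental copies, the copies within a cell or the cells of a culture, and these cannot be told apart here.

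The libraries were made by CUT&Tag, in which an antibody directs a Tn5 transposase to cut and tag the DNA beside a histone mark, in exponentially growing K562 cells, a human chronic myeloid leukemia line with early erythroid features. The benchmark set held 8 libraries, made without trichostatin A, with SDS extraction and 15 PCR cycles: 2 replicates each of the H3K27ac antibodies Abcam-ab177178 (1:100), Abcam-ab4729 (1:100) and Diagenode (1:50), and 2 replicates of the H3K27me3 antibody CST-9733 (1:100). The first set held 5 H3K27ac libraries (ab177178, ab4729 and Active Motif at 1:100, Diagenode at 1:50 and 1:100) and 1 CST-9733 library, with the same extraction and cycles. The TSA set held 4 H3K27ac libraries (ab177178 and ab4729 at 1:100, Diagenode at 1:50 and 1:100) made with trichostatin A, an inhibitor of histone deacetylases. The PCR and extraction set held 20 libraries, in which each of 5 antibodies (4 against H3K27ac, and CST-9733) was used once with 11 or 13 cycles and with SDS or column extraction. Every H3K27me3 library came from the same antibody, so mark and antibody cannot be told apart. The study describes the benchmark replicates as biological replicates, and whether they were separate cultures is not given in the sources used here, so the p-values below measure the spread between these libraries.

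Peaks came from MACS2 and from SEACR in the first 3 sets and from SEACR alone in the PCR and extraction set. The lists do not hold the numbers of fragments behind them, and the sequencing metrics that the study gives per library were not used here, so a list is described by its number of peaks. Benchmark H3K27ac lists held 21317 to 34897 MACS2 peaks and 10930 to 15614 SEACR peaks, and H3K27me3 lists held 65638 to 77412 and 83643 to 85248. H3K27ac lists varied more in length in the first set (3070 to 16661 SEACR peaks) and the TSA set (4479 to 21904). In the PCR and extraction set (3797 to 10821) all were shorter than the benchmark SEACR lists, though not than all lists of the first and TSA sets. The TSA and the PCR and extraction lists were made from downsampled reads. The labelled cell line was checked against markers: the erythroid genes GATA1, TAL1, KLF1, LMO2, TFRC, HBG1 and EPOR each had H3K27ac at a start in both callers and no H3K27me3. PAX5, NEUROD1, MYOD1, COL1A1 and CDH1, markers of other cell types, had H3K27me3 in both callers and no H3K27ac.

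In the benchmark set a gene was counted for H3K27ac when a peak overlapped the window of one start in at least 2 of 6 libraries, and for H3K27me3 when it did in 2 of 2. With SEACR, 4 of the 10 imprinted genes had H3K27ac at a start (MEG3, DLK1, GRB10 and PLAGL1), where 25.2% of all annotated genes did. Many annotated genes are short and have 1 start, so the same share was also taken over protein-coding and lncRNA genes with at least 5 starts, 13538 in all, and came to 59.4%. MACS2 gave 4 as well (DLK1, PEG10, GRB10 and PLAGL1), beside 27.4% of all genes and 65.4% of those with 5 or more starts. H3K27me3 lay at a start of 5 of the 10 in either caller, and both callers named H19, IGF2, PEG10, MEST and PLAGL1. The shares of all genes were 20.8% with SEACR and 21.2% with MACS2, and 24.2% and 24.7% among genes with at least 5 starts. Both marks at one start were found at 1 of 10 with SEACR (PLAGL1), where 1.14% of all genes and 2.26% of those with at least 5 starts had both. MACS2 found both at 2 of 10 (PEG10 and PLAGL1), beside 1.7% and 3.63%. Under a stricter peak threshold PLAGL1 lost both marks at one start in either caller, leaving 0 genes with SEACR and 1 (PEG10) with MACS2. Without CST-9733 replicate 1 the SEACR count was 2, as DLK1 joined. The members were picked by name from earlier results of these data, and nothing particular to imprinted genes is read from these counts.

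**Figure D1:**
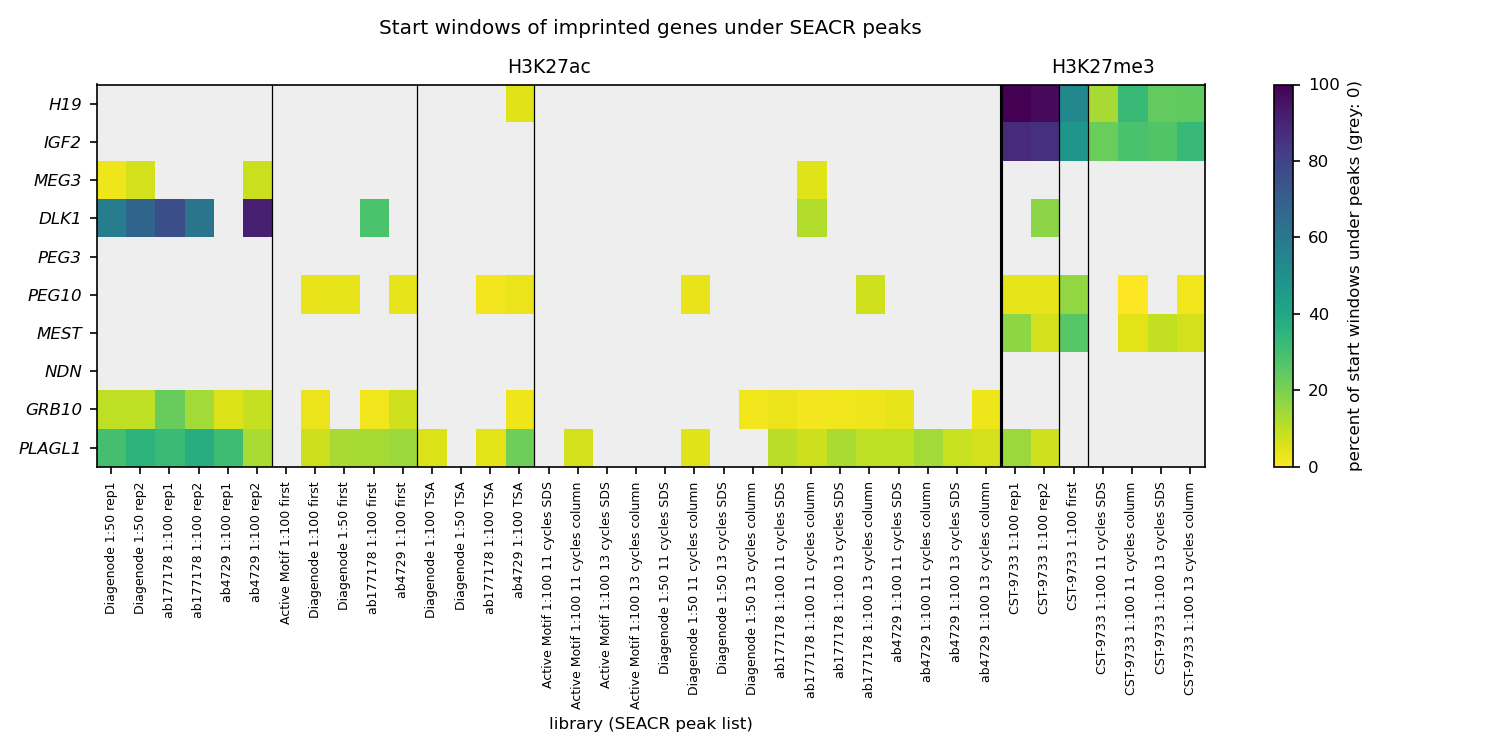
Percent of each gene's start windows under SEACR peaks (colour scale), for the 10 imprinted genes (rows) in all 38 libraries (columns), with H3K27ac libraries at left and H3K27me3 libraries at right. H19 and IGF2 are covered in part or whole in all 7 H3K27me3 libraries, PLAGL1 shows H3K27ac in 23 of 31 libraries, and the rows of PEG3 and NDN are empty.

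PLAGL1, a zinc-finger transcription factor that restrains cell growth, spans chr6:144261437-144385736 on the minus strand (GRCh37/hg19, as are all coordinates below). Its 21 annotated starts fall into 5 clusters when overlapping windows are merged. The upstream cluster lies between positions 144385648 and 144385736. The second cluster, 12 starts between 144328484 and 144329960, contains the start of the imprinted lncRNA HYMAI and is the place known as the imprinted PLAGL1 promoter. Both marks met there. The stretch below lay under the H3K27ac peaks of all 6 MACS2 lists and 5 of 6 SEACR lists, and under the H3K27me3 peaks of both SEACR lists and 1 of 2 MACS2 lists. It is 258 bases at chr6:144328969-144329226, read on the minus strand, intronic in PLAGL1 and exonic in HYMAI, and the capitals mark CpG dinucleotides, the sites at which imprints are methylated.
PLAGL1 start shared with HYMAI: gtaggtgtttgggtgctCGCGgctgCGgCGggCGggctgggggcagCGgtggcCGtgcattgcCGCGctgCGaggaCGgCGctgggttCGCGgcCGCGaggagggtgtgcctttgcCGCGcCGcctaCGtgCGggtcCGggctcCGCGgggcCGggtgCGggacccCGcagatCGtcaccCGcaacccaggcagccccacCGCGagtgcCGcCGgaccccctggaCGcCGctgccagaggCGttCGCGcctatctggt
It holds 38 CpG, where the median of protein-coding promoter windows of this length is 22, and 76.4% of its bases are G or C. The letters TGCCGC, the core sequence that the imprint-keeping protein ZFP57 binds, were searched on both strands and occurred 3 times, while 24.5% of promoter windows of this length held them at least once. A match in letters is not a bound site.

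At this second PLAGL1 cluster H3K27ac was called in 6 of 6 benchmark lists with MACS2 and in 5 of 6 with SEACR, and H3K27me3 in 2 of 2 with either. The H3K27ac peaks covered 2303 to 3157 bp of the 4477-bp merged window in the 5 SEACR lists that had one, and the ab4729 replicate 2 list had none. The H3K27me3 peaks covered 1288 bp in replicate 1 and 1178 bp in replicate 2. They lay largely inside the acetylated stretch: in the 10 pairs of lists with both, 864 to 1288 bp were under both marks with SEACR, and 280 to 787 bp in 12 pairs with MACS2. The 3 SEACR H3K27me3 peaks on PLAGL1 had a summed signal at percentile 37.2 to 54.3 of their own lists. The 3 MACS2 H3K27me3 peaks ranked lower by −log10 q, at percentile 15.1 to 50.7 with a median of 19.4. Those at the second cluster had a −log10 q of 1.34 in replicate 1 and 2.74 in replicate 2.

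The other sets gave less. H3K27me3 was not called at the second cluster in the 1 library of the first set or in any of the 4 PCR and extraction libraries. H3K27ac was called there in 2 of 16 PCR and extraction libraries, in 2 of 5 of the first set with MACS2 and none with SEACR, and in 1 of 4 TSA libraries with SEACR. Both marks at this start were thus seen in the benchmark set alone, and the TSA set held no H3K27me3 library. The H3K27me3 lists held 65339 to 77684 SEACR peaks in the PCR and extraction set. In the first set the H3K27me3 lists held 107101 peaks with SEACR and 89528 with MACS2. The part of peak number or of read depth in this difference was not tested.

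The upstream PLAGL1 cluster was acetylated more steadily. H3K27ac was called in 6 of 6 benchmark lists with either caller, in 4 of 5 of the first set with SEACR, in 3 of 4 TSA libraries and in 10 of 16 PCR and extraction libraries. H3K27me3 was called there by both callers in CST-9733 replicate 1 but not in replicate 2, over 1206 bp with SEACR and 1187 bp with MACS2. It overlapped the H3K27ac peaks by 909 to 1206 bp with SEACR and by 485 to 782 bp with MACS2. The upstream start therefore had both marks in 1 of 2 H3K27me3 replicates and was not counted.

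Over all start windows of PLAGL1, SEACR H3K27ac peaks covered 32.0%, 37.6%, 31.2%, 12.7%, 29.4% and 35.3% in ab177178 replicates 1 and 2, ab4729 replicates 1 and 2, and Diagenode replicates 1 and 2. H3K27me3 covered 15.0% and 7.10%. The ab4729 replicate 2 library was the low one, and it fell between the H3K27me3 libraries, so the groups overlapped. Its MACS2 value, 17.6%, lay within the 10.9% to 20.9% of the 6 libraries, whose lowest value was above both H3K27me3 values of 9.77% and 5.55%.

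**Figure D2:**
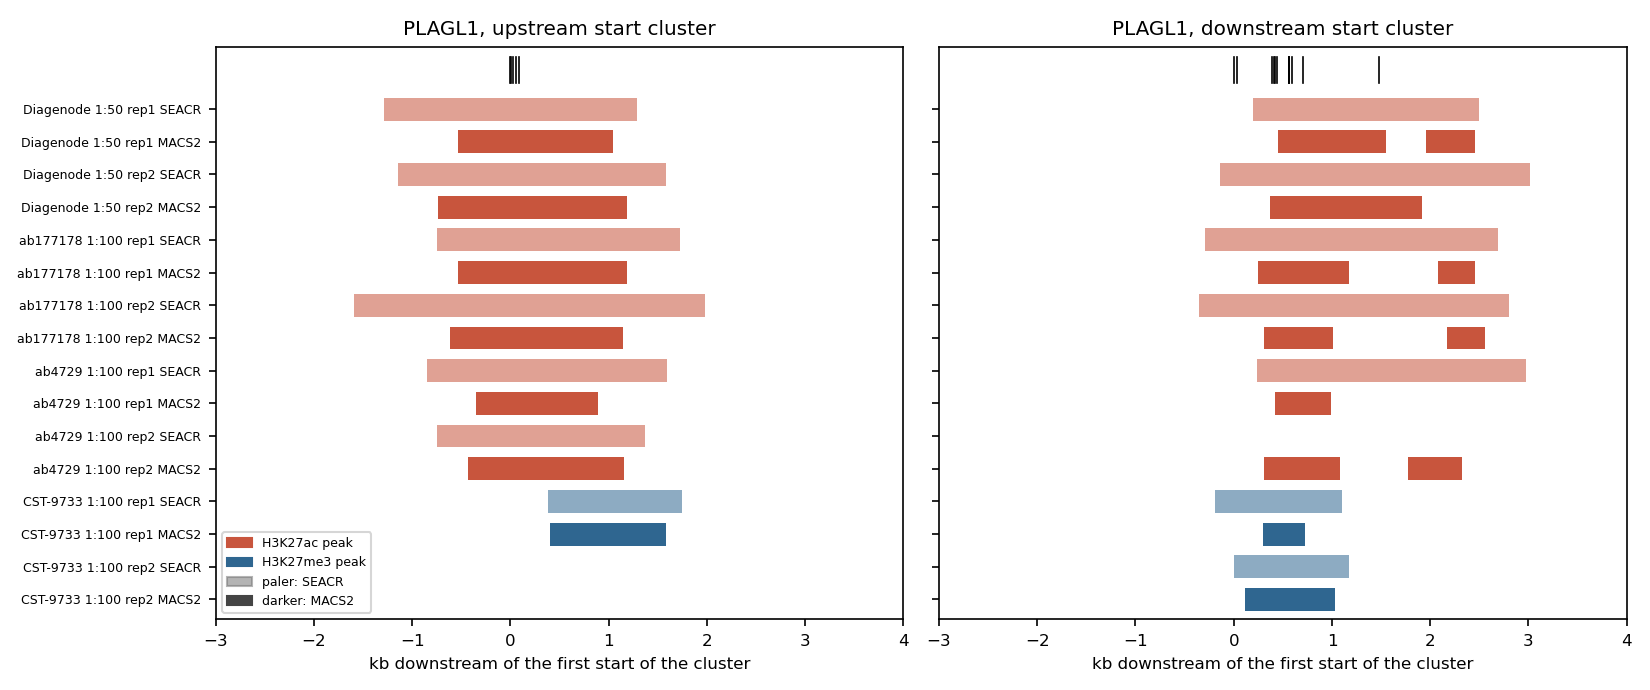
Peaks at the upstream and the HYMAI start clusters of PLAGL1 in the 8 benchmark libraries (rows), with distance in kb along the horizontal axis, MACS2 and SEACR drawn separately, and colours giving the mark. At the HYMAI start H3K27me3 peaks of both CST-9733 libraries lie under H3K27ac peaks of all 6 libraries with MACS2 and 5 of 6 with SEACR, and at the upstream start H3K27me3 is present in replicate 1 alone.

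PEG10, a gene derived from a retrotransposon and expressed from the paternal copy, lies at chr7:94285637-94299007 on the plus strand, head to head with SGCE. It had H3K27me3 in both benchmark libraries and in the 1 library of the first set with either caller, and in the benchmark set it had H3K27ac with MACS2 but not with SEACR. The benchmark peaks all lay on 1 short interval in the first intron, the same place for both marks. The stretch below, 250 bases at chr7:94287508-94287757 on the plus strand, is the longest part outside UTRs under the peaks of the 6 H3K27ac MACS2 lists and of the 2 H3K27me3 libraries with both callers, and lies just past the edge of the start window. Its 9 CpG are in capitals.
PEG10 first intron: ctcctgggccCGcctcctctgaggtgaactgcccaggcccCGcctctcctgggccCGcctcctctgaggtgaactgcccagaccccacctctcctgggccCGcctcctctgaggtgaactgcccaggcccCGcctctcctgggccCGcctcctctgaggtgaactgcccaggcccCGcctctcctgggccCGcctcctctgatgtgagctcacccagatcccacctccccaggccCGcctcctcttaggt
The sequence repeats itself: moved by 45 bases along its own length, 89.8% of its bases match. The same measure gave at most 40.5% in the PLAGL1, MEST, GRB10 and MEG3 stretches. Reads from repeated units can be placed at more than 1 position, and the part of the repeat in the peaks of both marks was not tested.

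The H3K27me3 peaks on PEG10 were 779 and 815 bp wide with SEACR and 612 and 723 bp with MACS2. They were narrow, and ranked at a median percentile of 91.1 in their MACS2 lists by −log10 q but at percentile 57.4 and 61.9 in their SEACR lists by summed signal. The H3K27ac MACS2 peaks were 327 to 771 bp wide and of ordinary rank, at percentile 13.1 to 62.6. Of these 6 peaks, 4 reached into the start window, by 64 to 202 bp, and those of the Diagenode libraries stopped short of it. SEACR called no H3K27ac on PEG10 in the benchmark set, where its nearest peak was 144594 to 145138 bp away. In the other sets it did, at the same intronic stretch, in 3 of 5 first, 2 of 4 TSA and 2 of 16 PCR and extraction libraries, and H3K27me3 was called in 1 of 1 and 2 of 4. The double call at PEG10 thus depended on the caller in the benchmark set, and on an overlap at the very edge of the window.

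MEST, a gene for an enzyme of the alpha/beta hydrolase family that is expressed from the paternal copy, lies at chr7:130126012-130146306 on the plus strand. It carried H3K27me3 and no H3K27ac in any library. The mark sat at its upstream start cluster, 6 starts between 130126012 and 130126967, in 2 of 2 benchmark libraries with either caller, in the first library, and in 3 of 4 PCR and extraction libraries. The stretch shown is 300 bases at chr7:130126436-130126735, plus strand, in an intron of MEST and an exon of the antisense lncRNA MESTIT1, under H3K27me3 in both benchmark libraries with both callers. Its 27 CpG, in capitals, compare with a promoter median of 26.
MEST upstream start: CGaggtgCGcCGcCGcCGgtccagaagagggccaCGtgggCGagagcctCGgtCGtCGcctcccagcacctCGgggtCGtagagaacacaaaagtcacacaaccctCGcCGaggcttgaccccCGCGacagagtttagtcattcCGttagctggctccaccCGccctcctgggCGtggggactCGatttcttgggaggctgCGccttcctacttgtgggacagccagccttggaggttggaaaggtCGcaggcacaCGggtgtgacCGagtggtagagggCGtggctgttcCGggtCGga
SEACR peaks covered 17.1% and 6.93% of its start windows in the benchmark replicates and MACS2 peaks 18.0% and 14.3%. The widest H3K27me3 peak on MEST was 3291 bp, and the peaks ranked at percentile 6.97 to 61.9 of their lists with SEACR and up to 75.4 with MACS2, a median of 22.4 and 26.1. H3K27ac was far away, with the nearest peak at 44813 bp or more with MACS2 and 103423 bp or more with SEACR in the benchmark set.

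**Figure D3:**
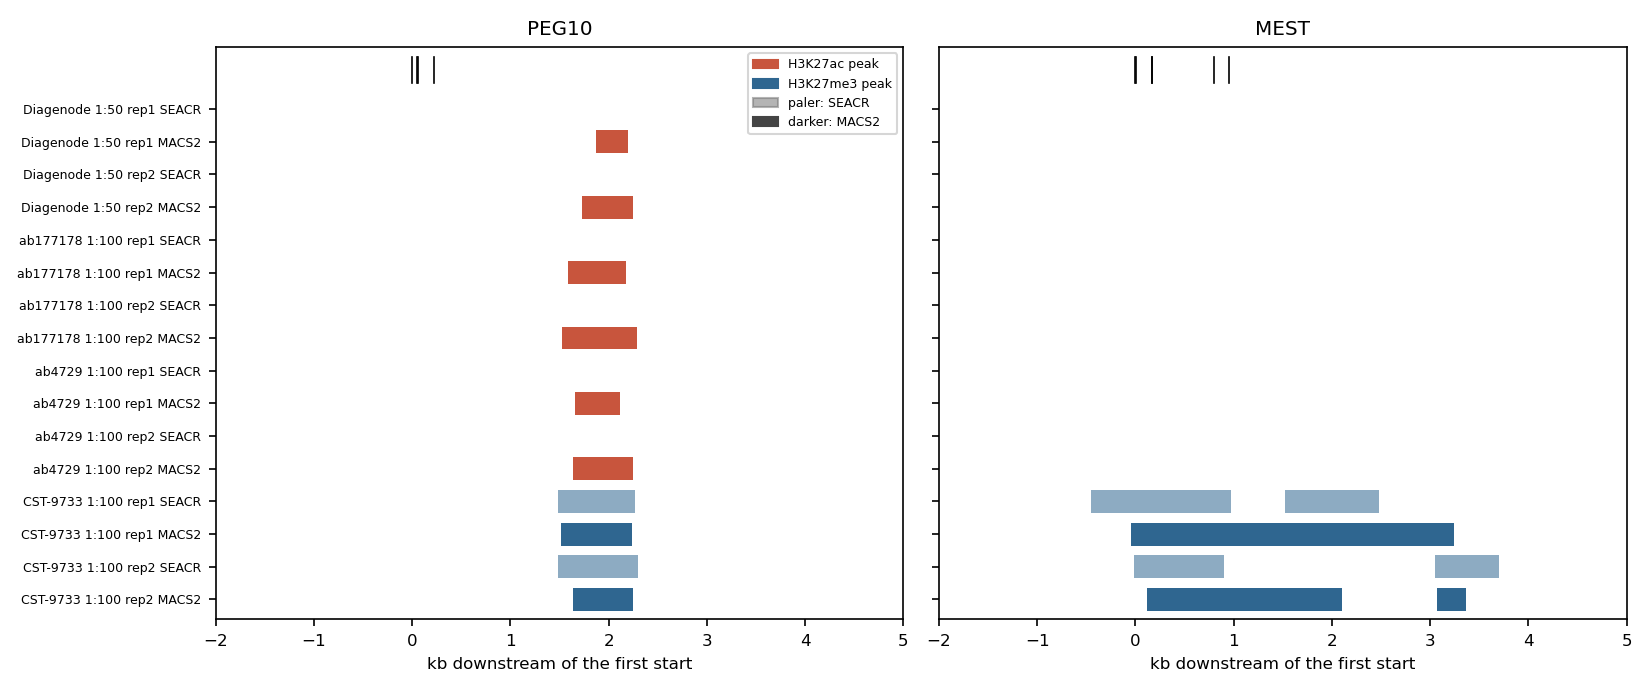
Peaks around PEG10 and the upstream start of MEST in benchmark libraries (rows), with distance in kb on the horizontal axis and colours giving the mark. On PEG10 the narrow peaks of both marks, 327 to 815 bp wide, stack in the first intron, while MEST has H3K27me3 peaks alone.

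H19 and IGF2 gave the strongest H3K27me3 of the 10. H19, a lncRNA of the maternal copy, lies at chr11:2016396-2025782 and IGF2, an insulin-like growth factor of the paternal copy, at chr11:2150342-2179621, both on the minus strand. They share enhancers and are governed by the methylation of a control region upstream of H19. H3K27me3 covered 100% and 97.0% of the H19 body in the 2 benchmark SEACR lists and 100% in both MACS2 lists. It covered 93.6% and 89.4% of IGF2 with SEACR and 91.7% and 88.0% with MACS2. No benchmark H3K27ac list had a peak on either gene, at a start or in the body.

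These were broad domains. The peaks on H19 were 11924 to 51880 bp wide with SEACR and 49707 to 51148 bp with MACS2, where the median H3K27me3 peak was 1364 bp and 1162 bp. By signal they ranked at percentile 96.1 to 99.97 of all peaks of their lists with SEACR. On IGF2 the widest peaks were 44186 bp with SEACR and 60532 bp with MACS2. Of the 163226 bp from one end of the pair to the other, 72.0% to 74.0% lay under H3K27me3 with SEACR and 69.5% to 75.5% with MACS2, and the first library gave 54.6% with SEACR. In the PCR and extraction lists the share was 19.7% to 32.1%. The domain also filled 66.1% to 67.4% of the 124559 bp between the genes with SEACR.

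H3K27ac entered the interval in 2 of 31 libraries only, both with SEACR: in 1 of 4 TSA libraries over 497 bp and in 1 of 16 PCR and extraction libraries over 817 bp. The TSA peak, from ab4729, was the single H3K27ac peak in an H19 start window, of which it covered 4.41%. An interval downstream of H19 was looked at after the values were seen. In the 10000 bp past its end, MACS2 H3K27ac peaks were called in 5 of 6 benchmark libraries over up to 3453 bp, and SEACR peaks in 4 of 6 over up to 6355 bp, while H3K27me3 covered 6384 to 6892 bp there with SEACR. In the PCR and extraction set 0 of 16 libraries had H3K27ac there. Around IGF2 the nearest SEACR H3K27ac peak was 136510 to 141933 bp away, whereas the nearest MACS2 peak, in 1 list, was 3268 bp away.

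**Figure D4:**
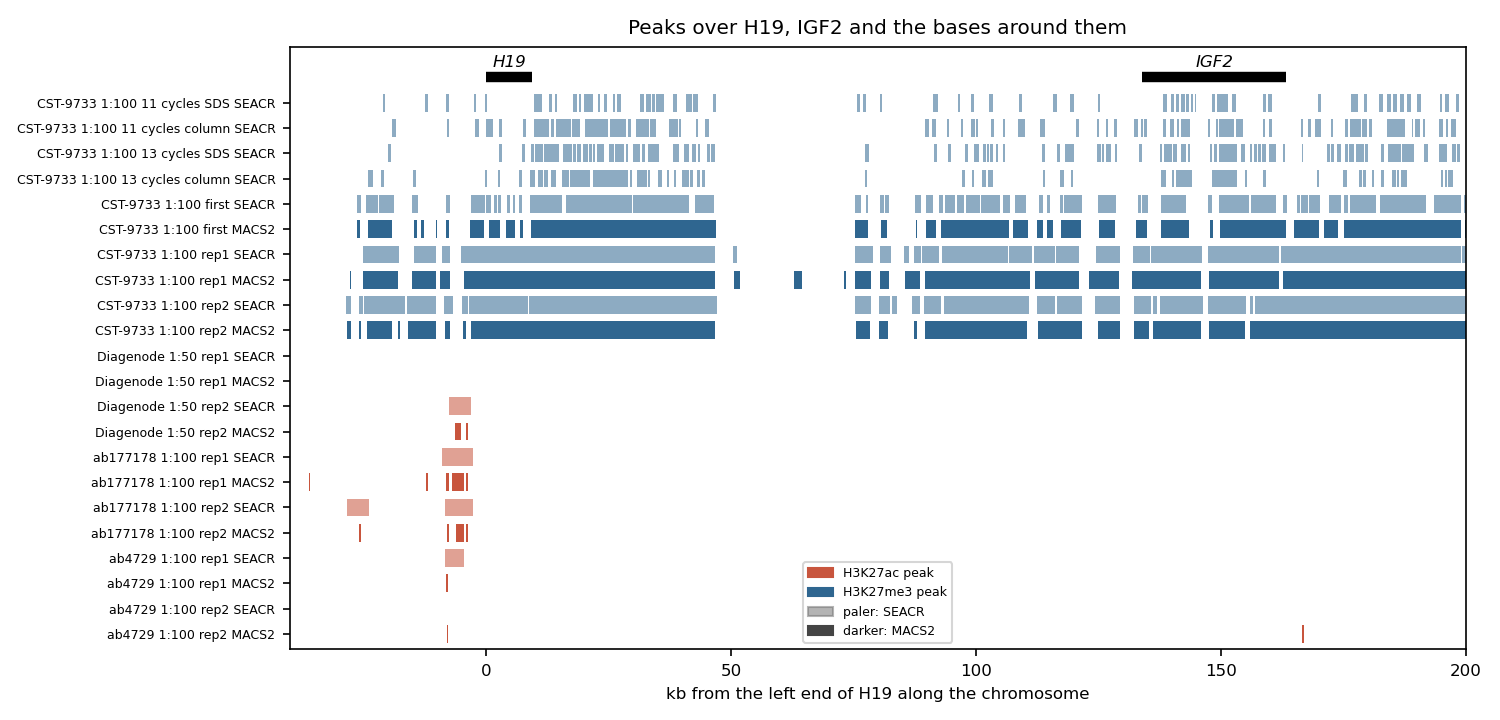
Peaks across the H19 and IGF2 interval, with distance in kb on the horizontal axis and libraries in rows: the H3K27ac libraries of the benchmark set and the H3K27me3 libraries of the benchmark, first, and PCR and extraction sets. H3K27me3 fills 69.5% to 75.5% of the interval in the benchmark libraries and 19.7% to 32.1% in the PCR and extraction libraries, and no benchmark H3K27ac peak lies between the ends of the pair.

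GRB10, an adaptor that dampens insulin receptor signalling and is imprinted in a tissue- and start-dependent way, lies at chr7:50657760-50861159 on the minus strand. It carried H3K27ac and no H3K27me3. The mark sat at the outermost of its 10 start clusters, 7 starts between 50860381 and 50861159, in 6 of 6 benchmark libraries with either caller. It was called there in 3 of 5 first libraries, 1 of 4 TSA libraries and 7 of 16 PCR and extraction libraries with SEACR. The stretch shown, 300 bases at chr7:50859401-50859700 on the minus strand and intronic, lay under the H3K27ac peaks of all 6 libraries with both callers and has 3 CpG, in capitals. Its midpoint is 830 bp downstream of the nearest start and 1608 bp downstream of the outermost, so it is not the start itself. The median of promoter windows of this length, which are centred on a start, is 26 CpG.
GRB10 outermost start: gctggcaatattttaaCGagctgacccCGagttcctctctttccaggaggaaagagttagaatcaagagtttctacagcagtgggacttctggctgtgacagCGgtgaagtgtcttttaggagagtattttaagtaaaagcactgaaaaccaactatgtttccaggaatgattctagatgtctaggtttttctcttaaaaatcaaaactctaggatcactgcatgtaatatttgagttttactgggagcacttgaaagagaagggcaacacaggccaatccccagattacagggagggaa
SEACR peaks covered 5.22% to 23.1% of the GRB10 start windows in the 6 benchmark libraries, with a mean of 11.7% ± 6.25 (SD, n = 6). The 2 ab177178 libraries were the highest, with either caller, and the downstream clusters were acetylated in at most 2 of 6 libraries. No H3K27me3 library of any set had a peak on the gene, the nearest in the benchmark set being 5997 to 6182 bp upstream.

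DLK1, a membrane protein related to Notch ligands that is made from the paternal copy, lies at chr14:101192042-101204561 and MEG3, a maternally expressed lncRNA, at chr14:101245747-101327368, both on the plus strand. DLK1 was acetylated at its start in 6 of 6 benchmark libraries with MACS2 and 5 of 6 with SEACR. SEACR peaks covered 76.1%, 61.4%, 0%, 91.3%, 57.7% and 67.7% of its start windows in ab177178, ab4729 and Diagenode replicates 1 and 2, in that order. The ab4729 replicate 1 list was the empty one, and its MACS2 list had the smallest value of the 6, 12.8%, where the others ran from 21.1% to 39.2%. Outside the benchmark set the DLK1 start was acetylated in 1 of 5 first libraries and 1 of 16 PCR and extraction libraries, both ab177178. H3K27me3 was called there once, by SEACR in CST-9733 replicate 2, as a 756-bp peak at percentile 4.20 of its list that lay wholly under the H3K27ac peaks of 5 libraries.

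MEG3, taken from its outermost annotated start, was acetylated inside the gene more than at its starts. In the benchmark set its H3K27ac peaks ended at most 14209 bp past that start. They thus lay upstream of all its other annotated starts, the nearest of which is at 101292435. Its largest cluster, 28 starts between 101292435 and 101302057, had no peak of either mark in any library. The outermost start had H3K27ac in 3 of 6 benchmark lists with SEACR, 1 of 6 with MACS2 and 1 of 16 PCR and extraction lists. These SEACR benchmark peaks ranked at percentile 0.15 and 1.92 in Diagenode replicates 1 and 2, and 35.0 in ab4729 replicate 2. A 1536-bp block lay within an intron near its upstream end, 64.5 to 66.0 kb from the DLK1 start. The block was picked for lying under H3K27ac in all 6 benchmark MACS2 lists, and it had H3K27ac in all 6 with SEACR. It was met in 4 of 5 first libraries with either caller, in 3 of 4 TSA libraries with SEACR and in 10 of 16 PCR and extraction libraries, and H3K27me3 met it in 1 of 4. The stretch shown is 300 bases within that block, at chr14:101257161-101257460 on the plus strand, 11564 bp from the outermost start, with 8 CpG in capitals.
MEG3 intron: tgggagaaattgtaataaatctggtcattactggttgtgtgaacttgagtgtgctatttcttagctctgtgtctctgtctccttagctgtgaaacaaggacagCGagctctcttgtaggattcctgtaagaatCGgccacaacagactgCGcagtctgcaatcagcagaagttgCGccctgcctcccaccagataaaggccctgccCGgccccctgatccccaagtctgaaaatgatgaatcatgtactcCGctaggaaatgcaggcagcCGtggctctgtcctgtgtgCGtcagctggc
Neither this stretch nor those of GRB10, MEST and PEG10 held TGCCGC on either strand, while 23.9% of promoter windows of the shortest of these lengths, 250 bases, did. All stretches other than the one at PLAGL1 were chosen after the values were seen.

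Blocks near the pair were picked as bases under H3K27ac peaks of all 6 benchmark MACS2 lists. The block called in most libraries of the other sets lay between the genes. A 4134-bp block, chr14:101236252-101240385, 44.2 to 48.3 kb from the DLK1 start, was acetylated in all 6 benchmark libraries with both callers. It was also called in 5 of 5 first libraries with either caller, in 4 of 4 TSA libraries with SEACR and 3 of 4 with MACS2, and in 14 of 16 PCR and extraction libraries, whereas 0 of 7 H3K27me3 libraries had a peak on it. Of the 41185 bp between DLK1 and MEG3, H3K27ac covered up to 34.7% with SEACR and 10.5% to 19.9% with MACS2 in the benchmark set. Its calls in the 6 benchmark MACS2 lists followed from the way it was picked. In each of the other sets it was acetylated in more libraries than the start of either gene.

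**Figure D5:**
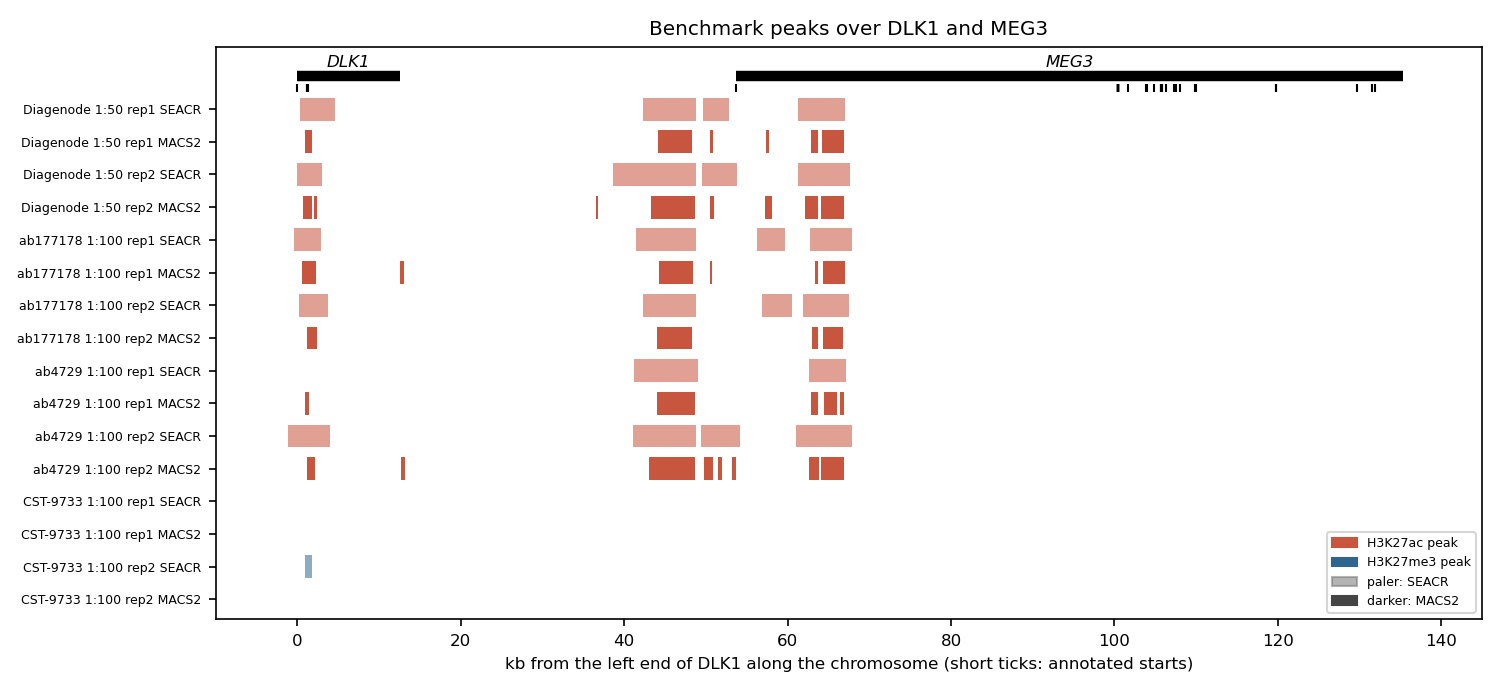
Peaks across the DLK1 and MEG3 interval in the benchmark libraries (rows), with distance in kb from the DLK1 start on the horizontal axis and colours giving the mark. H3K27ac blocks shared by all 6 libraries with MACS2 lie at 1.21 to 1.46 kb, at the DLK1 start, and at 44.2 to 48.3 kb, between the genes. Others lie inside MEG3, the widest at 64.5 to 66.0 kb. The only H3K27me3 peak is the 756-bp peak at the DLK1 start.

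PEG3, a paternally expressed zinc-finger protein at chr19:57321445-57352096 on the minus strand, and NDN, the gene for necdin at chr15:23930547-23932452 on the minus strand, had no peak of either mark in any of the 56 lists. PEG3 stood in a wide interval without peaks. In the benchmark set the nearest H3K27ac peak was 350737 to 438673 bp away and the nearest H3K27me3 peak 585047 to 592149 bp away. NDN was nearer to both, at 112130 to 118883 bp from H3K27ac and 36739 to 37368 bp from H3K27me3. A gene without a peak can still have reads below the callers' thresholds, which the files do not show.

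The marks were then tested against each other in the PCR and extraction set, whose libraries the authors reduced to a shared number of read pairs. By the study's own metrics duplication differed between these libraries, so unique fragments need not have been equal. The measure was the percent of a gene's start windows under SEACR peaks, compared between 4 H3K27me3 and 16 H3K27ac libraries by a two-sided exact permutation test over all 4845 choices of 4 libraries, adjusted by Benjamini and Hochberg over all 27408 genes with a peak in at least 1 library. The threshold was an adjusted p of 0.05. Higher in H3K27me3 were 3 of the 10 imprinted genes (H19, IGF2 and MEST), where 26.2% of the tested genes were, and higher in H3K27ac were 0, where 6.65% were. The test was not made for PEG3 and NDN, which had no peak.

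IGF2 start windows were covered to 22.9%, 28.8%, 27.2% and 32.4% by H3K27me3 with 11 cycles SDS, 11 cycles column, 13 cycles SDS and 13 cycles column, a mean of 27.8% ± 3.96 (SD, n = 4), and to 0% in 16 of 16 H3K27ac libraries (exact permutation p = 0.000206, the smallest these libraries allow, adjusted p = 0.00109). H19 had 12.9% in the lowest and 32.3% in the highest of these 4 libraries, a mean of 23.4% ± 7.96 (SD, n = 4), and 0% in all H3K27ac libraries, with the same exact permutation p and adjusted p. In both genes the groups did not overlap. MEST had 0%, 3.98%, 8.99% and 6.85%, a mean of 4.95% ± 3.89 (SD, n = 4), with 0% in 16 of 16 H3K27ac libraries (exact permutation p = 0.00351, adjusted p = 0.0118). The 11-cycle SDS library was the one without a MEST peak and had the lowest values for H19 and IGF2 too.

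PLAGL1 went the other way without passing. H3K27ac covered a mean of 5.68% ± 5.02 (SD, n = 16) of its start windows, with 10 of 16 libraries above 0 and a median of 6.81%, and H3K27me3 covered 0% in 4 of 4 (exact permutation p = 0.0669, adjusted p = 0.143). GRB10 had H3K27ac in 7 of 16 libraries, a mean of 1.10% ± 1.35 (SD, n = 16), and H3K27me3 in 0 of 4 (exact permutation p = 0.222, adjusted p = 0.318). MEG3, DLK1 and PEG10 had H3K27ac in 1, 1 and 2 of 16 libraries and gave an exact permutation p of 1. None of these 5 differences passed the threshold.

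Over gene bodies the same 3 genes were higher in H3K27me3 and 0 in H3K27ac, where 31.1% and 5.47% of 27943 tested genes were. IGF2 had the largest value, a mean of 38.5% ± 7.76 (SD, n = 4), and H19 followed with 15.6% ± 10.3 (SD, n = 4), each against 0% in 16 H3K27ac libraries (exact permutation, adjusted p = 0.00087). MEST had 3.14% ± 2.35 (SD, n = 4, exact permutation, adjusted p = 0.0106). MEG3 had H3K27ac on its body in 10 of 16 libraries, at a mean of 1.11% ± 1.05 (SD, n = 16), and H3K27me3 in 1 of 4, and did not pass (exact permutation p = 0.119, adjusted p = 0.226).

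In the benchmark set 6 H3K27ac libraries were set against 2 H3K27me3 libraries. The smallest exact permutation p of that design is 0.0357. No gene reached a Benjamini-Hochberg adjusted exact permutation p of 0.05, the smallest being 0.0539 with SEACR and 0.0512 with MACS2. Genes with the smallest unadjusted p are therefore given as a description. With SEACR, 4 of the 10 reached that p with H3K27me3 above H3K27ac over the gene body (H19, IGF2, PEG10 and MEST), where 40.3% of 32782 genes had an unadjusted p under the threshold in that direction. MEG3 reached it the other way, where 26.0% of genes did. With MACS2 the genes were H19, IGF2 and MEST for H3K27me3, beside 41.1% of 32914 genes, and MEG3 and DLK1 for H3K27ac, beside 28.6%.

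MEG3 body coverage by H3K27ac was 10.5%, 11.3%, 5.51%, 8.99%, 7.04% and 7.98% with SEACR in the order used above, a mean of 8.56% ± 2.18 (SD, n = 6), against 0% in both H3K27me3 libraries (exact permutation p = 0.0357). All of this MEG3 coverage lay between its outermost start and its other annotated starts. DLK1 had a SEACR mean of 23.7% ± 12.5 (SD, n = 6), from 0% to 34.5%, against 0% and 6.04% (exact permutation p = 0.107), and its groups overlapped through the ab4729 replicate 1 library. Its MACS2 mean was 8.98% ± 3.21 (SD, n = 6) against 0% in both (exact permutation p = 0.0357). PEG10 had 5.83% and 6.10% H3K27me3 with SEACR and no H3K27ac (exact permutation p = 0.0357). With MACS2 the marks covered 4.99% ± 0.587 (SD, n = 2) and 4.08% ± 1.12 (SD, n = 6) of PEG10, and the groups overlapped (exact permutation p = 0.357). GRB10 and PLAGL1 leaned to H3K27ac in both callers with an exact permutation p of 0.0714 to 0.214. GRB10 had H3K27ac in 6 of 6 libraries and no H3K27me3 with either caller, so its groups did not overlap although it missed the smallest p.

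A list of 35 other imprinted genes was scored in the same way. H3K27ac lay at a start of 12 of 35 with SEACR and 14 with MACS2, and H3K27me3 at 14 with either caller. With SEACR and MACS2, H3K27ac lay at 25.2% and 27.4% of all genes, and at 59.4% and 65.4% of those with at least 5 starts. For H3K27me3 the shares were 20.8% and 21.2% of all genes, and 24.2% and 24.7% of those with at least 5 starts. Both marks were found at 1 with SEACR, HYMAI, and at 3 with MACS2, HYMAI, SGCE and L3MBTL1. Of all genes, 1.14% had both with SEACR and 1.7% with MACS2, and 2.26% and 3.63% of those with at least 5 starts. HYMAI and SGCE start 1 bp and 2 bp from a start of PLAGL1 and PEG10, so they share these windows and are not separate sites. IGF2-AS, antisense to IGF2, and INS, which lies next to it, had H3K27me3 in both benchmark libraries like their neighbour. ZIM2, which shares a start with PEG3, had no peak of either mark.

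The sequence around the main annotated start, 3001 bp of GRCh37, was rich in CpG in most of the 10. The count ran from 83 in MEG3 and 99 in H19 to 331 in IGF2, where the median of 19881 protein-coding promoters was 115. TGCCGC occurred 8 times in GRB10, 7 times in PEG3 and in MEST and 6 times in PLAGL1, where 0.382%, 0.900% and 1.94% of promoters held it as many times, and it was absent from PEG10. In GRB10 and MEST this main start lies in a downstream cluster, not in the cluster where the mark was called in all benchmark libraries, so the letters and the marks were read at different starts.

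The genes whose start-window coverage over the 38 SEACR lists was most like that of each gene were found by Pearson's r, leaving out genes within 1000000 bp. The points share antibodies and list lengths, and most lists are at 0, so r is a description only. Nearest to H19 was CACNA1C (r = 0.998), to IGF2 MMP28 (r = 0.998), to MEST SLC17A4 (r = 0.971) and to GRB10 LIMA1 (r = 0.962). DLK1 was nearest to SELENOO (r = 0.958), PLAGL1 to BACH1 (r = 0.919) and PEG10, whose pattern crosses both marks, to UMOD at a lower r of 0.834.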

How the data were processed

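K562 cells were profiled by CUT&Tag for H3K27ac (31 libraries) and H3K27me3 (7 libraries), and 56 deposited peak lists were used. Per the submitters' processing notes and the study's methods, the authors trimmed reads with Trim Galore 0.6.6, mapped the trimmed reads with Bowtie2 2.2.9 (build hg19), handled duplicates with Picard 2.6.0, and called peaks per library with MACS2 (narrow for H3K27ac, broad for H3K27me3) and SEACR. The TSA and the PCR and extraction lists came from reads the authors downsampled, the latter to a shared number of read pairs, which need not equalise unique fragments. MACS2 lists deposited by the authors hold an integer score, fold enrichment (a ratio) and −log10 p and q values, and SEACR lists deposited by the authors hold total and maximum signal. Thresholds differed between marks, so signal and −log10 q were compared only within a list, as percentiles, and mark and threshold cannot be told apart.

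Peaks of the autosomes and of X and Y were intersected (bedtools 2.31.1, Python 3.11.15, pandas 2.3.3, NumPy 2.4.6, at least 1 base of overlap) with windows of 1500 bp either side of 221300 gene starts of the GENCODE annotation lifted to GRCh37, from whose assembly the sequences were read, and with gene bodies. No blacklist was applied. Overlapping windows of a gene were merged. Two-sided exact permutation tests compared marks over libraries, with Benjamini-Hochberg adjustment over all genes, and were tested on simulated data. Samples were grouped by the labels, and replicate numbers were not used to pair libraries. The genes named are the 10 members and 35 other imprinted genes, with the nearest 3 genes by r for likeness. Members, gene lists and tests were chosen with earlier results of these data known. Some marker genes are not reported here.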

Additional observations from a re-analysis of the deposited data

Results flagged for a closer look

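The following 6 values stood far from the rest of their group by the gap to the nearest other library, a measure that chance alone passes in about 1 in 20 groups. That rate need not hold where the rest of a group is at 0%, as for both MEG3 values, since any peak then stands apart. For DLK1, ab4729 replicate 1 had 0% of the start windows and 0% of the gene body under SEACR H3K27ac peaks, where the next lowest benchmark libraries had 57.7% and 22.7%. For PLAGL1, ab4729 replicate 2 had 12.7% of the start windows under SEACR H3K27ac peaks, and the next lowest had 29.4%. For MEG3, ab4729 replicate 2 was the only benchmark library with a MACS2 H3K27ac peak in a start window, at 1.97%.

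In the PCR and extraction set, the CST-9733 library with 11 cycles and column extraction had 0.812% of the MEG3 body under H3K27me3, where the other 3 had 0%. The CST-9733 library with 13 cycles and column extraction had 2.30% of the PEG10 start windows under H3K27me3, and the next highest had 0.257%.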

How the results depend on the processing

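The count of genes with H3K27ac at a start moved from 4 to 2 with SEACR when only the upper 50% of peaks by signal was kept. The count with H3K27me3 moved from 5 to 3 under the stricter peak threshold in either caller (H19, IGF2 and PEG10), and to 3 with MACS2 at the outermost start alone. Both marks at one start fell from 1 to 0 with SEACR under the outermost start or the stricter threshold. With MACS2 they fell from 2 to 0 at the outermost start and to 1 (PLAGL1) when a peak had to cover 300 bp. They also fell to 1 (PEG10) with MACS2 under the stricter threshold. For MACS2 that threshold was a −log10 q of at least 10 for H3K27ac and the upper 50% of peaks for H3K27me3. The HYMAI start of PLAGL1 is not its outermost, and the cause of the other changes was not tested.

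Leaving out replicates gave ranges of 3 to 4 and 4 to 4 genes for H3K27ac (SEACR, MACS2), 5 to 6 and 5 to 5 for H3K27me3, and 1 to 2 and 2 to 2 for both marks. The 2 came without CST-9733 replicate 1, when DLK1 joined PLAGL1. In the comparison at a shared number of read pairs 3 genes remained when any H3K27me3 library was left out, a choice made after seeing the data, 1 (H19) at the outermost start alone, 2 with the upper 50% of peaks, and 3 when libraries were permuted within cycles and extraction. For the benchmark bodies, leaving out 1 library gave 0 to 6 genes in either caller: 0 without CST-9733 replicate 1 or without CST-9733 replicate 2, when the smallest p is 0.143, and 5 to 6 without an H3K27ac library. With the replicate number as a replicate block the count was 0 in either caller, since the smallest p was 0.0625. The deviations of same-numbered libraries correlated at 0.233 for Diagenode and ab4729 with MACS2 and at −0.0252 to 0.0265 for every other antibody pair of the 6 per caller, so the numbers were not taken to pair the libraries. No direction turned among the genes that passed. Fragment numbers were not used here, so a missing peak is not absence of the mark.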
